A study of Rattus norvegicus with 25 samples.

Results

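The 10 genes described here mark successive stages of neutrophil maturation, and they were followed through tooth and periodontal ligament of rats after a molar had been replanted. They are the primary granule genes Mpo, Elane, Prtn3 and Ctsg, the secondary granule genes Camp, Ngp, Ltf and Lcn2, and S100a8 and S100a9 as genes of the mature neutrophil. They were chosen by symbol and make up 10 of the 16881 gene symbols in the files. None of the 10 symbols was repeated. In each of 24 libraries a Sprague–Dawley rat molar had been replanted after drying for 5 min (immediate replantation, IR) or 60 min (delayed replantation, DR), and the tissue was collected at day 3 or day 7. IR day 3, DR day 3, IR day 7 and DR day 7 held 6 libraries each. A single further library, labelled NT, has control as both its treatment and its time. The labels give postnatal day 21 for every library, name no genotype or transgene, and do not state whether that age is the age at surgery or at collection. They do not say that libraries of a group came from separate animals, so the p-values measure only the spread between libraries.

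Neutrophils are made in the bone marrow and fill their granules in sequence. Promyelocytes transcribe the primary (azurophil) granule proteins, among them myeloperoxidase and the serine proteases elastase, proteinase 3 and cathepsin G. Myelocytes and metamyelocytes switch to the secondary (specific) granule proteins, and transcripts of both classes fall away before the cell enters the blood, while the cytosolic S100a8 and S100a9 messages stay abundant in the circulating cell. A tissue reached by blood neutrophils is therefore known for high S100a8 and S100a9 with little primary granule RNA, whereas bone marrow holds all stages. Lcn2 is not particular to neutrophils, because inflamed epithelium and macrophages also make it. Sources of the other genes outside neutrophils, S100a8 and S100a9 included, were not tested here.

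The promoters are shown for 4 genes that span the stages, since myeloid regulators act on them at different steps of maturation. They were read from RefSeq promoters of the rat build GRCr8, which held 8 of the 10 genes (not Elane and S100a8), and each stretch is the 250 bases before the annotated start. Capitals mark every match to 1 of 3 motifs searched on both strands: GAGGAA (a PU.1 core), TTGC and AA with any 2 bases between them (a C/EBP form), and GGGA and TCC with any 3 bases between them (an NF-kB form, chosen with the known Lcn2 site in mind). Mpo lies at chr10:73092152-73092401 on the plus strand, Ctsg at chr15:33907597-33907846 on the minus strand, Lcn2 at chr3:36081781-36082030 on the minus strand, and S100a9 at chr2:178490623-178490872 on the minus strand.
Mpo: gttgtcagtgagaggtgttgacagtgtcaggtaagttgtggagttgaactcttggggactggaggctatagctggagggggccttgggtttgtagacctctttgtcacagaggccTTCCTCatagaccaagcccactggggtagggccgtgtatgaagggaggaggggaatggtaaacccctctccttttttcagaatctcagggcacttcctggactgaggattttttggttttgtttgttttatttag
Ctsg: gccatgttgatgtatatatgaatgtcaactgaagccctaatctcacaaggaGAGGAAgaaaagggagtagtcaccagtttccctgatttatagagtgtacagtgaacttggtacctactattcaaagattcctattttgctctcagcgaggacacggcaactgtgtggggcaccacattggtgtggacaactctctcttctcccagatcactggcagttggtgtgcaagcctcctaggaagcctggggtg
Lcn2: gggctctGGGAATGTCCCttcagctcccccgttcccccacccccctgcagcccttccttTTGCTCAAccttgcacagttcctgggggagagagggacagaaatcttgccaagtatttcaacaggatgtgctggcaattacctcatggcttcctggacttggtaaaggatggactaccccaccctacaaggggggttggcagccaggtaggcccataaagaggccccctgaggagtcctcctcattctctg
S100a9: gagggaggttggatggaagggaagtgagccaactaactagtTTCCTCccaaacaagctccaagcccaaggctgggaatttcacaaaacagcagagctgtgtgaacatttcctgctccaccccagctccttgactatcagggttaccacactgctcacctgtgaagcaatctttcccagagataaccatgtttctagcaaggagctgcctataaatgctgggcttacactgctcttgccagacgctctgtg

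The PU.1 core was found in 4 of the 8 promoters (Mpo, Ctsg, Prtn3 and S100a9), against 23.3% of 33469 rat promoter stretches of the same length. The C/EBP form was found in 2 of the 8, Lcn2 and Ngp, against 9.22% of all. The NF-kB form was found in Lcn2 alone of the 8, against 3.38% of all, and its matches on the 2 strands overlap by all but 1 base at either end. Each of the 4 promoters printed above holds a match, whereas those of Camp and Ltf hold none. The matches are letters in a window and say nothing of binding.

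The libraries were made with the Lexogen QuantSeq kit, which captures the 3′ ends of polyadenylated RNA, so counts are independent of transcript length. Levels are CPM, the counts scaled to the library total. That total was 8.49 M counts in NT and 5.01 to 8.74 M in the other 24 libraries. At these depths 0 counts allow up to 0.343 to 0.599 CPM (3 counts of the total, counting error only). Ribosomal RNA entries took 2.93% of NT counts and 9.81% to 34.1% of those of a replanted library. At day 3, 6 libraries stood apart and are called gland-rich here: IR replicates 3 and 4 (18.8% and 21.1% of counts in a list of nasal and salivary gland genes, 16 of 18 in the files), and IR replicate 6 and DR replicates 1 to 3 (1.60% to 2.65% in a list of lipid-secreting gland genes, 9 of 10 in the files). In the other 18 replanted libraries these shares were at most 7.52% and 0.548%. The labelled tissue was checked with 10 genes of tooth and periodontal ligament, such as Col1a1 and Ibsp. These took 14.6% of counts in NT, 3.74% to 9.11% at day 7, and 2.11% to 4.36% in the other 6 day 3 libraries, but 0.0367% to 0.993% in the 6 gland-rich libraries. Of their 9 tested genes, 4 rose from day 3 to day 7, against 6.94% of all genes, and without the 6 gland-rich libraries 0 of 10 were called (6 estimates higher, 4 lower). Only 51 of 11836 genes were called in that smaller fit. The part of gland tissue in any result below was not tested beyond leaving those 6 libraries out. In bulk tissue, fewer cells of a type and less RNA per cell cannot be told apart.

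Primary granule transcripts were far more abundant in NT than in any replanted library. Mpo, the enzyme that makes hypochlorous acid, stood at 170 CPM in NT (95% Poisson interval of the count, 162 to 179). Its lowest, median and highest values were 0, 12.8 and 18.9 CPM in IR day 3 and 0, 0.842 and 21.2 CPM in DR day 3. At day 7 they were 0.467, 2.89 and 11.5 CPM in IR and 0.114, 3.58 and 4.90 CPM in DR. All 24 replanted libraries lay below NT, which was 8.05-fold above the highest of them, while the 4 replanted groups overlapped one another. Ctsg, the granule protease cathepsin G, read 80.5 CPM in NT (74.6 to 86.8). In the replanted groups it ran from 0 through a median of 17.8 to 33.9 CPM in IR day 3, from 0 through 2.35 to 21.7 CPM in DR day 3, from 0.667 through 4.33 to 12.7 CPM in IR day 7, and from 0 through 3.26 to 5.59 CPM in DR day 7. NT was 2.37-fold above the highest replanted library. The 3 libraries with the highest Ctsg were IR day 3 replicates 2, 3 and 5, while replicates 4 and 6 of the same group held 1 and 0 counts.

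Elane, neutrophil elastase, was likewise highest in NT, then in IR day 3, and lowest in DR day 3 by the medians. It read 44.3 CPM in NT (39.9 to 49.0), with medians of 10.4 CPM in IR day 3, 0.915 CPM in DR day 3, 2.47 CPM in IR day 7 and 2.41 CPM in DR day 7. NT was 2.62-fold above the highest replanted library (16.9 CPM, IR day 3 replicate 2). Prtn3, the proteinase that lies next to Elane in the genome, was barely detected after replantation: 58 counts in NT (6.83 CPM, 5.19 to 8.83) against at most 15 counts in a replanted library and 76 counts over all 24. NT stood 3.69-fold above the highest replanted library (1.85 CPM). Prtn3 overlaps its neighbour Plppr3 in GRCr8, and the strand setting of the counting is not given in the sources used here, so its counts are uncertain. It did not pass the filter on low counts and was not tested.

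Camp and Ngp, both messages of the secondary granule stage, were also far higher in NT, and Ngp had the widest gap of the 10 genes. Camp encodes the cathelicidin antimicrobial peptide and read 722 CPM in NT (704 to 740). Its lowest, median and highest values were 0.626, 51.8 and 101 CPM in IR day 3, 0.161, 8.89 and 63.4 CPM in DR day 3, 10.4, 25.4 and 109 CPM in IR day 7, and 9.41, 20.6 and 64.3 CPM in DR day 7. NT was 6.64-fold above the highest of the 24, and the replanted groups overlapped. Ngp, the neutrophilic granule protein, read 550.3 CPM in NT (535 to 566). It reached 46.8 CPM in IR day 3 (median 18.7), 14.6 CPM in DR day 3 (median 4.86), 48.8 CPM in IR day 7 (median 6.25) and 37.8 CPM in DR day 7 (median 5.21). The highest replanted library was exceeded 11.3-fold by NT. Ltf, the gene of lactoferrin and a standard specific granule marker, gave 1 count in the 24 replanted libraries together (DR day 3 replicate 1) and 0 in NT. A count of 0 in NT allows up to 0.353 CPM by counting error alone, so Ltf adds nothing to the secondary granule sums. NT held 6134 counts of Camp and 4674 of Ngp, and whether the counting could capture Ltf transcripts was not tested.

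Lcn2 went the other way. The gene encodes the iron-scavenger carrier neutrophil gelatinase-associated lipocalin, and at 93.0 CPM in NT (86.6 to 99.7) it was lower there than in 22 of the 24 replanted libraries. Its lowest, median and highest values were 7.08, 203 and 509.7 CPM in IR day 3, 59.3, 195 and 414 CPM in DR day 3, 140.0, 195 and 428 CPM in IR day 7, and 126, 236 and 419 CPM in DR day 7. The 2 libraries below NT, IR day 3 replicate 6 and DR day 3 replicate 2, were both gland-rich, and every day 7 library lay above NT. Lcn2 made up 6.81% of the secondary granule counts in NT and 47.5% to 99.9% of them in the replanted libraries. A sum over the 4 secondary granule genes is thus mostly Lcn2 after replantation, and the stage is described below by Camp and Ngp.

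S100a8 and S100a9, the calcium-binding subunits of calprotectin, were the 2 most abundant of the 10 genes in NT and in 20 of the 24 replanted libraries. S100a8 read 4285 CPM in NT (4242 to 4329.7) and had lowest, median and highest values of 18.5, 1075 and 2622 CPM in IR day 3, 31.8, 609 and 3609.7 CPM in DR day 3, 875, 2271 and 3068 CPM in IR day 7, and 1009, 1345 and 2295 CPM in DR day 7. NT lay above all 24, but only 1.19-fold above the highest, DR day 3 replicate 6. Ribosomal RNA took 34.1% of counts in that library and 2.93% in NT, so this order reverses on totals without it. S100a9 read 4023 CPM in NT (3980.1 to 4065) against medians of 1286, 605, 2716 and 1876 CPM in IR day 3, DR day 3, IR day 7 and DR day 7. Here 2 replanted libraries exceeded NT, DR day 3 replicate 6 (4651 CPM) and IR day 7 replicate 1 (4126 CPM). On totals without ribosomal RNA, further replanted libraries exceed NT. The folds that follow include ribosomal RNA in the totals and shrink without it. Against the group medians, NT was 3.99-fold (IR day 3), 7.03-fold (DR day 3), 1.89-fold (IR day 7) and 3.19-fold (DR day 7) higher for S100a8, and 3.13-fold, 6.65-fold, 1.48-fold and 2.14-fold higher for S100a9. In each group these gaps were smaller than those of Mpo, Elane, Ctsg, Camp and Ngp, whose smallest was 4.25-fold (Elane, IR day 3).

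**Figure D1:**
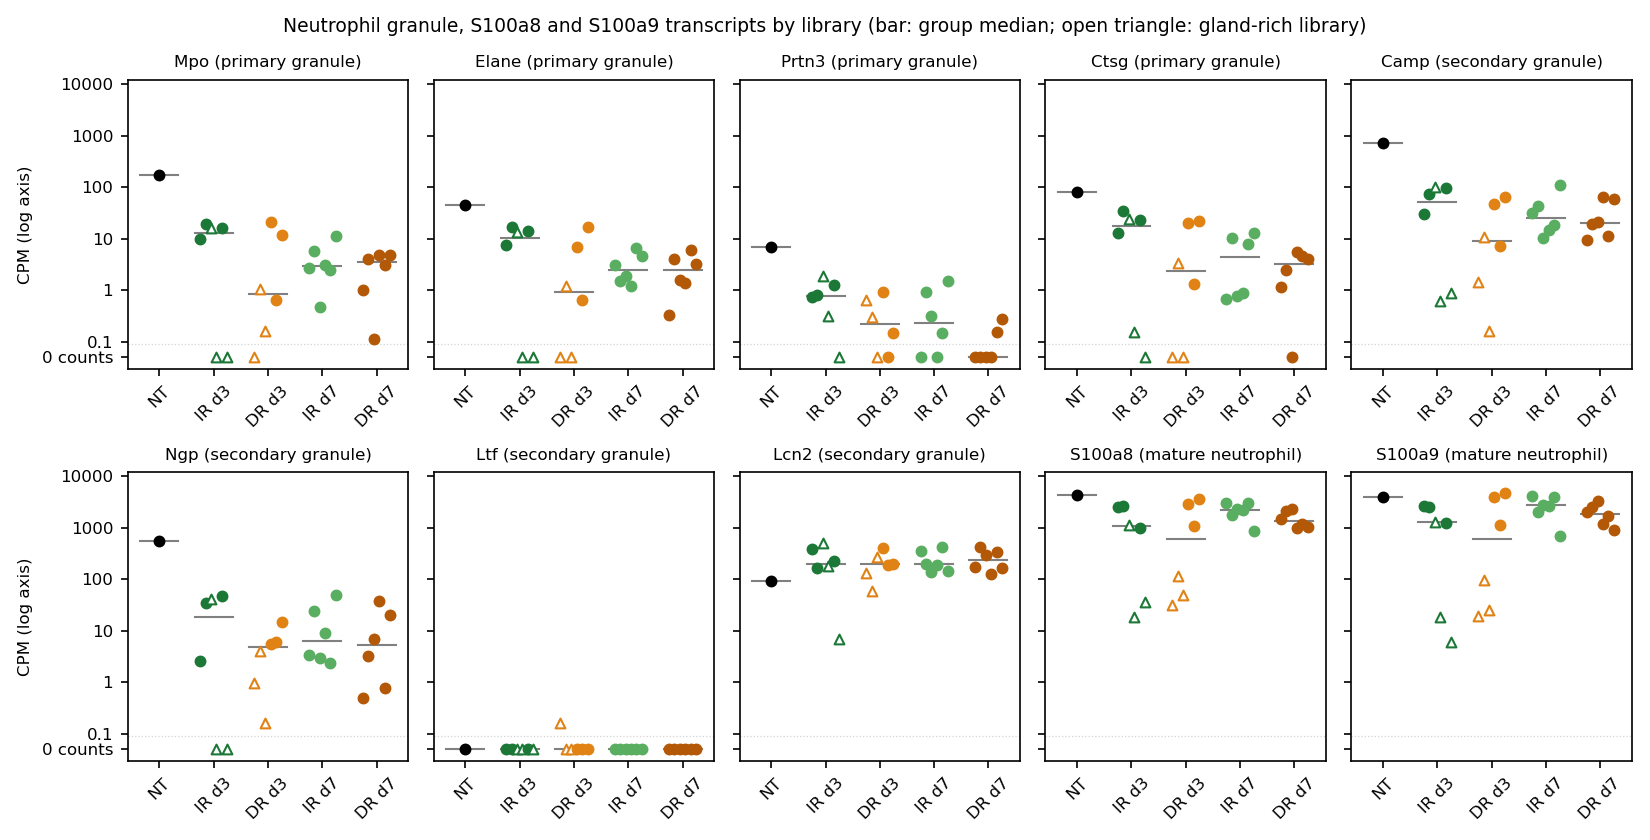
CPM of each gene (log axis) in NT and the 4 replanted groups, 1 point per library, with the group median as a bar and 0 counts drawn at the foot. Open triangles are the 6 gland-rich day 3 libraries; NT sits above every replanted library for Mpo, Elane, Prtn3, Ctsg, Camp and Ngp, and below 22 of 24 for Lcn2.

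Of the 8 members among the 11492 genes that passed the filter, 6 were higher in NT than in every replanted library, which held for 7.4% of all 11492 genes. For 5 of the 8 (Mpo, Elane, Ctsg, Camp and Ngp) NT was more than 2 times the highest replanted library, against 0.801% of all. These counts use totals that include ribosomal RNA, which took 2.93% in NT. It took 31.5% in IR day 3 replicate 2, highest for Elane and Ctsg, and 34.1% in DR day 3 replicate 6, highest for S100a8. Without it, Elane and Ctsg in NT fall under 2 times the highest replanted library, and S100a8 is no longer highest in NT. The shares of all genes were not recounted that way. NT is 1 library, so this comparison has no replicate check and no p-value. Of the lists of other blood cell lineages, 2 were also highest in NT. The erythroid list (9 of 11 genes in the files, none at 0 in NT) took 4.29% of NT counts against 0.0727% to 2.20% in the replanted libraries. Megakaryocyte and platelet genes (5 of 6 in the files, none at 0 in NT) took 0.0335% in NT and at most 0.00933% elsewhere. The other 5 lists were not highest in NT: monocyte and macrophage genes took 0.225% in NT and up to 0.545% in a replanted library, eosinophil genes 0.0176% and up to 0.0625%, B cell and plasma cell genes 0.00932% and up to 0.0143%, mast cell genes 0.00653% and up to 0.00756%, and T cell genes 0.00117% and up to 0.0137%. The part of these lineages, or of marrow collected with the tissue, in the NT values was not tested.

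At day 3, 5 libraries held very little S100a8 and S100a9. In IR replicates 4 and 6 and DR replicates 1 to 3, all gland-rich, S100a8 and S100a9 together took 0.0037% to 0.0212% of counts, while the lowest share in the other 19 replanted libraries was 0.158%. The summed primary granule counts in these 5 were 3, 0, 4, 40 and 1, and Camp and Ngp together gave 4, 5, 15, 100 and 2 counts. The 40 and 100 counts of DR replicate 2 exceeded the 16 and 81 of DR replicate 5, which was not gland-rich. Lcn2 did not follow: it held 1167 counts in IR replicate 4 and 819, 401 and 1665 counts in DR replicates 1 to 3, and only IR replicate 6 was low, with 41. In 3 of the 5 libraries (IR replicate 4 and DR replicates 1 and 3), Lcn2 exceeded S100a8 and S100a9 combined, which it did in none of the other 19. IR day 3 replicate 3 was gland-rich too, yet it held 448 primary granule counts and 1164 counts of Camp and Ngp, near the 394 and 1058 of replicate 5.

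In point values, the balance between stages separated NT from every replanted library. S100a8 and S100a9 counts outnumbered the primary granule counts 27.5 to 1 in NT. In the 21 replanted libraries with more than 3 primary granule counts, that ratio ran from 35.9 (DR day 3 replicate 2) to 3301 (DR day 7 replicate 3). The value of 35.9 rests on 40 primary granule counts, and no interval was computed for these ratios, so counting error may cover its distance from NT. With 0.5 count added to each sum, the log2 ratio of primary granule to S100a8 and S100a9 counts was -4.78 in NT and lay between -11.64 and -5.15 in the 24 replanted libraries. Relative to Camp and Ngp, the S100 pair was 6.53-fold more abundant in NT and 10.02-fold to 381-fold in the 23 replanted libraries with more than 3 Camp and Ngp counts. By these point values, no replanted library reached the share of granule transcripts that NT carried per S100a8 and S100a9 transcript.

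Within the replanted teeth the primary granule share was lower at day 7 than at day 3 in the medians, with wide overlap. The median log2 ratio of primary granule to S100 counts was -6.13 in IR day 3 (-8.96 to -5.40), -7.23 in DR day 3 (-9.69 to -5.15), -9.27 in IR day 7 (-10.51 to -5.70) and -8.23 in DR day 7 (-11.64 to -7.28). Over both drying times the medians were -6.64 at day 3 and -8.73 at day 7. Without the 6 gland-rich libraries, the day 3 median was -7.23. For Camp and Ngp the corresponding medians were -5.64 at day 3, -6.88 at day 3 without the 6 gland-rich libraries, and -7.65 at day 7. These ratios are sums over members and carry no test.

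**Figure D2:**
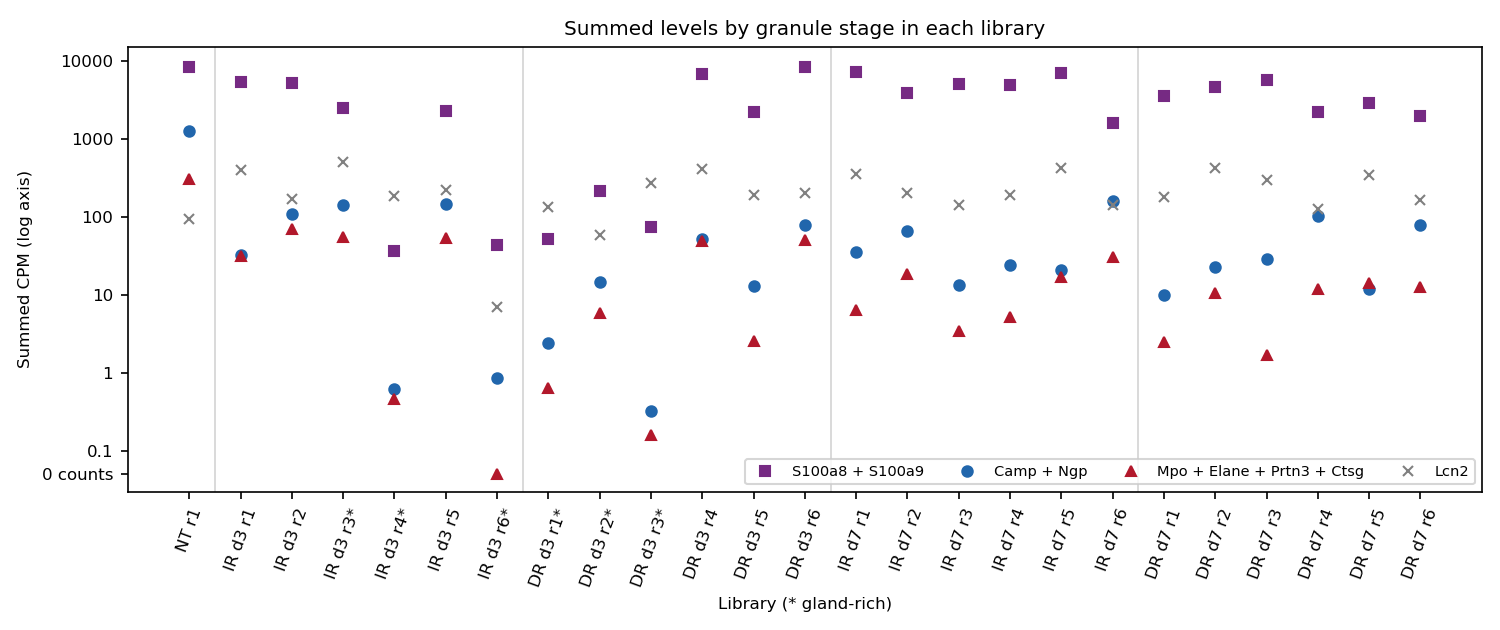
Summed CPM per library (log axis) of S100a8 and S100a9 (squares), Camp and Ngp (circles), the 4 primary granule genes (triangles, 0 counts at the foot) and Lcn2 (crosses), libraries ordered by group and replicate, gland-rich ones starred. The primary granule and Camp and Ngp sums are highest in NT (302 and 1272 CPM), and 5 of the 6 starred libraries drop to 36.95 to 212 CPM of S100a8 and S100a9 while Lcn2 stays in all but 1 of them.

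At day 7 the 3 libraries with the most Camp had the least S100a8 and S100a9, while Lcn2 and the primary granule genes did not follow Camp in all of them. IR replicate 6 held 109 CPM of Camp, DR replicate 4 64.3 CPM and DR replicate 6 58.5 CPM, beside 1579, 2179 and 1943 CPM of S100a8 and S100a9. The other 9 day 7 libraries held 9.41 to 42.1 CPM of Camp and 2909.8 to 7179 CPM of the S100 pair. Lcn2 was not high in the same 3 libraries (143, 126 and 166 CPM, where the day 7 maximum was 428 CPM). The primary granule sum was highest in IR replicate 6 (30.4 CPM), but DR replicates 4 and 6 (11.8 and 12.5 CPM) lay below IR replicate 5 (16.9 CPM), which held 6971 CPM of the S100 pair. IR replicate 6 and DR replicate 6 were the only day 7 libraries with more S100a8 than S100a9 (log2 ratio of S100a9 to S100a8 of -0.31 and -0.21). In the other 10 that ratio ran from 0.18 to 0.55, and in NT it was -0.09. These 2 libraries also held the most erythroid counts (1.84% and 1.88%, against at most 0.743% in the others) and the most nasal and salivary gland counts (7.52% and 6.10%, against at most 5.35%), and the part of either in their Camp levels was not tested. They bear the same replicate number, and their deviations from the group means correlated at 0.721, so they may not be independent.

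**Figure D3:**
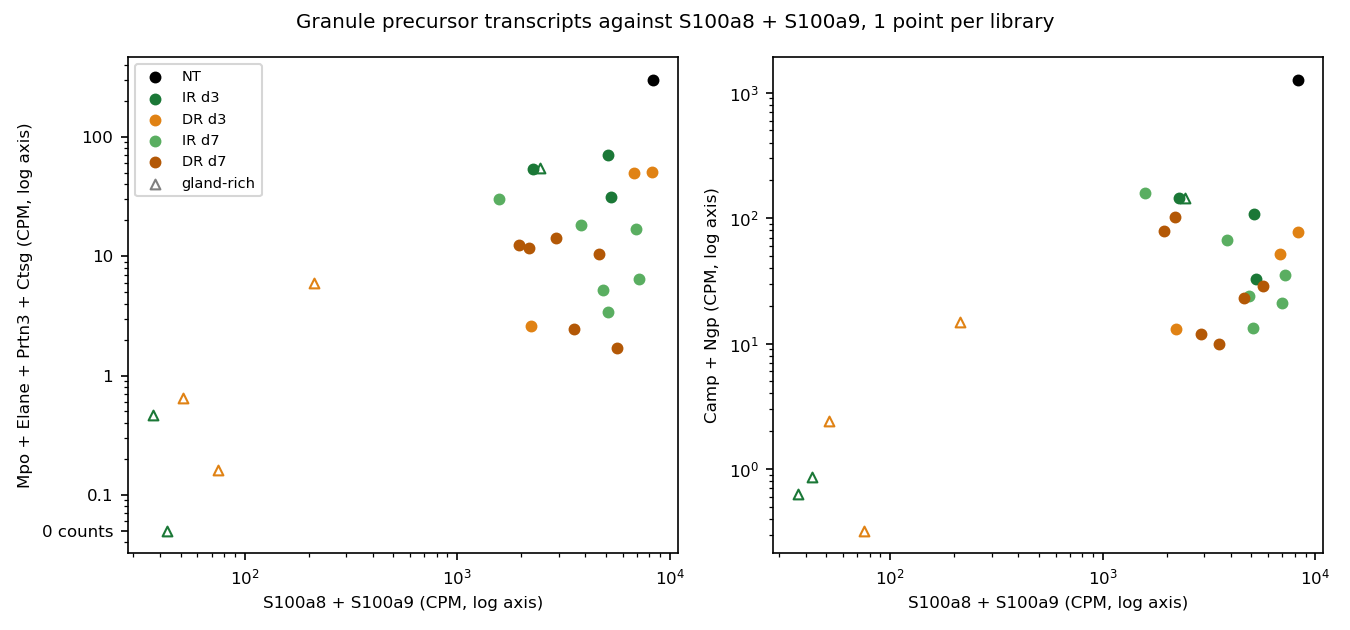
Summed CPM of the 4 primary granule genes (left) and of Camp and Ngp (right) against S100a8 and S100a9, all on log axes, 1 point per library and open triangles for gland-rich libraries. NT lies at the top right of both panels, and among the day 7 libraries the highest Camp and Ngp sums (157.6 and 102 CPM) belong to libraries with low S100a8 and S100a9 (1579 and 2179 CPM).

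Whether the genes changed with healing time was tested with edgeR's quasi-likelihood test over the 24 replanted libraries, with Benjamini-Hochberg adjustment over 11492 genes and a call at an adjusted p under 0.05. Averaged over IR and DR, none of the 8 tested members was called between day 7 and day 3, and none had an unadjusted p under 0.05, although 18.8% of all genes were called and 35.6% had such an unadjusted p. The primary granule genes had the largest estimates, all negative. Ctsg had a log2 fold change of -1.66 (SE 0.876, edgeR adjusted p = 0.179), Mpo of -1.31 (SE 0.827, adjusted p = 0.261) and Elane of -1.24 (SE 0.789, adjusted p = 0.264). The median CPM of these genes fell with time in IR but rose in DR. In DR it went from 0.842 to 3.58 for Mpo, from 0.915 to 2.41 for Elane and from 2.35 to 3.26 for Ctsg. Camp (-0.17), Ngp (0.17) and Lcn2 (-0.09) lay near the median of all genes, -0.06, while S100a8 (0.40, SE 0.688) and S100a9 (0.52, SE 0.783) had positive estimates. The 8 members had a median of -0.13, with 3 higher and 5 lower. Leaving out 1 library at a time moved Elane from -1.43 to -0.60 (the latter without DR day 3 replicate 6), Mpo from -1.58 to -0.76 (the latter without DR day 3 replicate 4) and Ctsg from -1.85 to -1.33.

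The S100 estimates rest on the gland-rich day 3 libraries. Without those 6, S100a8 was at -0.37 (SE 0.318, edgeR adjusted p = 0.684) and S100a9 at -0.25 (SE 0.382, adjusted p = 0.853), and all 8 members had negative estimates (median -0.51, against 0.00 over all genes). The primary granule estimates grew to -2.26 for Ctsg (adjusted p = 0.192), -1.93 for Mpo (adjusted p = 0.202) and -1.88 for Elane (adjusted p = 0.134). These 3 then had unadjusted p-values under 0.05, as 13% of all genes did. With limma's voom and quality weights, which give variable libraries less weight, S100a8 stood at 2.52 (limma adjusted p = 0.00685) and S100a9 at 2.89 (adjusted p = 0.00561), with Mpo at 0.071 and Elane at 0.47. The sign for S100a8 and S100a9 thus differed between these settings, and none of the settings tried called a primary granule gene in this contrast.

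Taken separately, day 7 against day 3 gave 0 of 8 members called in IR, where 0.139% of genes were called, and 0 of 8 in DR, where 0.0087% were. The members' median log2 fold change was -0.71 in IR (6 lower, 2 higher; all genes -0.09) and 0.06 in DR (3 lower, 5 higher; all genes 0.00). No member had an unadjusted p under 0.05 in either, against 20.4% and 22.5% of genes. This difference in sign rests on the 6 gland-rich libraries. Without them the medians were -0.83 in IR (5 lower, 3 higher) and -0.89 in DR (7 lower, 1 higher). Then 1 of 8 members in IR and 3 of 8 in DR had an unadjusted p under 0.05, against 8.57% and 9.07% of genes. In either, 0 of 8 were called, beside 1 (IR) and 0 (DR) of 11836 genes.

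**Figure D4:**
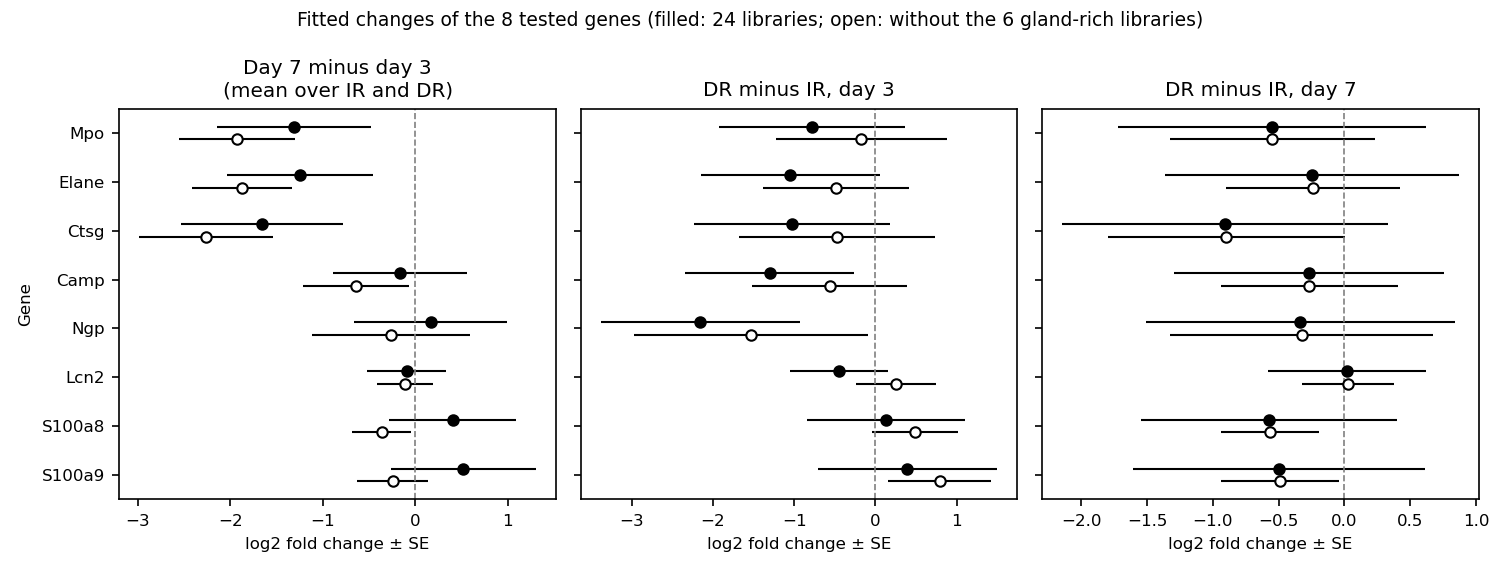
Log2 fold changes with their SE for the 8 tested genes: day 7 minus day 3 averaged over IR and DR (left), DR minus IR at day 3 (middle) and at day 7 (right). Filled points use all 24 libraries and open points leave out the 6 gland-rich ones; Mpo, Elane and Ctsg lie between -2.26 and -1.24 on the left, and S100a8 and S100a9 change sign when the 6 are left out.

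Longer drying before replantation changed none of these genes past the threshold. At day 3, 0 of 8 members were called between DR and IR, as were 0 (0%) of the 11492 genes, and no member had an unadjusted p under 0.05, against 2.72% of genes. The largest estimate was that of Ngp, -2.15 (SE 1.23, edgeR adjusted p = 0.983), followed by Camp at -1.30 (SE 1.04), Elane at -1.05 (SE 1.10), Ctsg at -1.03 (SE 1.20) and Mpo at -0.78 (SE 1.15). Lcn2 was at -0.45, S100a8 at 0.13 and S100a9 at 0.40. The members' median was -0.91, beside -0.04 for all genes. In library values, DR day 3 held 3 gland-rich libraries with very little S100a8 and S100a9, and IR day 3 held 2. Without the 6 gland-rich libraries the median of the 8 was -0.32, Ngp stood at -1.53 (SE 1.44) and Lcn2 turned to 0.26.

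At day 7, 0 of 8 members and 0 (0%) of all genes were called, and 1.79% of genes but no member had an unadjusted p under 0.05. Ctsg was at -0.91 (SE 1.24), S100a8 at -0.57 (SE 0.975), Mpo at -0.55 (SE 1.17), S100a9 at -0.50 (SE 1.11), Ngp at -0.33, Camp at -0.27, Elane at -0.25 and Lcn2 at 0.02. Averaged over both days all 8 estimates were below 0 (median -0.66, all genes -0.02), with 0 of 8 called, 0% of genes called, and 0 of 8 members but 1.71% of genes at an unadjusted p under 0.05. The drying effect did not differ between days past the threshold for any member (0 of 8 called, 0% of genes called; 0 of 8 at an unadjusted p under 0.05, against 3.01% of genes). The SEs of the drying estimates ran from 0.601 to 1.24 on the log2 scale at the single days, so these values do not show that drying left the genes alike.

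Genes that work alongside the 10 were read from lists of known genes. Further primary granule and promyelocyte genes, 7 of 8 in the files, took 0.633% of counts in NT and at most 0.205% in any replanted library. The defensin RatNP-3b carried most of that, at 4229 CPM in NT against medians of 602, 60.8, 126 and 127 CPM in IR day 3, DR day 3, IR day 7 and DR day 7. Serpinb1a, an inhibitor of the granule proteases, did not share the gap, with 205 CPM in NT and group medians of 237 to 282 CPM. None of the 5 tested genes of this list was called with time. The regulators of granule formation, 5 of 6 in the files, included Cebpa at 30.0 CPM and Spi1 (PU.1) at 12.4 CPM in NT, both inside their replanted ranges, and 0 of 4 tested were called.

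Lists of later granule genes, surface receptors, oxidase genes and recruitment signals were read in the same way. Which cells made these transcripts was not tested. Of the other secondary and gelatinase granule genes (7 of 8 in the files), 0 of 6 tested were called with time; Mmp9, the gelatinase B of tertiary granules, read 203 CPM in NT and medians of 49.5, 126, 693 and 463 CPM in IR day 3, DR day 3, IR day 7 and DR day 7. Of the neutrophil surface receptors, 3 of 7 tested rose from day 3 to day 7, as did 6.94% of all genes, among them Itgb2, the shared integrin chain, by 1.85 (SE 0.560, edgeR adjusted p = 0.0269) and Fcgr3a, an IgG receptor, by 1.61 (SE 0.454, adjusted p = 0.0194). Of the phagocyte oxidase genes 1 of 5 rose, Ncf1 (1.99, SE 0.409, edgeR adjusted p = 0.00716), and it was still called without the 6 gland-rich libraries (1.33, adjusted p = 0.0485), whereas none of the receptors was. Of the recruitment signals 1 of 7 rose, the cytokine Tnf (2.01, SE 0.688, edgeR adjusted p = 0.0442), and it was not called without the 6. The chemokine Cxcl2, a ligand of the neutrophil receptor Cxcr2, gave 0.12 CPM in NT and medians of 16.7, 50.8, 304 and 460.3 CPM in the same group order, but was not called (0.76, edgeR adjusted p = 0.63). Macrophages share several of these genes, and 5 of 10 monocyte and macrophage genes rose in the same contrast, such as Adgre1 (1.65, edgeR adjusted p = 0.0092), with none called without the 6. Over all genes, calls in this contrast fell from 2156 of 11492 to 51 of 11836 without the 6, so the lost calls are not particular to these lists.

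The genes whose log2 CPM ran most like each stage over the 24 replanted libraries were taken by Spearman's rho with the mean of the stage's tested genes, as a description over libraries that share depth and tissue makeup. For the primary granule genes these were Np4 (rho = 0.978), Prg3 (0.976), Defa5 (0.968), Prg2 (0.960) and RatNP-3b (0.959). Np4, Defa5 and RatNP-3b are defensins of similar sequence, so reads may have been split among them, while Prg2 and Prg3 encode major basic proteins of the eosinophil granule. Prg2 did not share the NT gap, at 158 CPM in NT, 154 CPM as the IR day 3 median and up to 475 CPM in DR day 3. For the secondary granule genes the order was RatNP-3b (0.903), Defa5 (0.880), Prg2 (0.877), Np4 (0.873) and Slc4a1 (0.863), the last being the band 3 protein of red cells. For S100a8 and S100a9 it was Dse (0.943), Vcan (0.942), Pglyrp1 (0.938), Slc9b2 (0.933) and Tubb6 (0.931). The primary and secondary granule lists shared 4 of their 5 genes, and the S100 list shared none with either.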

How the data were processed

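Tooth and periodontal ligament RNA was profiled in 25 libraries. The deposited values are raw read counts by gene symbol. The submitters' processing notes list Bowtie2, edgeR, mm10 and rn6, and the sources used here do not give versions, counting tool or strand. Of 17048 entries per file, the 1 of highest total was kept for each of 149 repeated symbols. The members and all gene lists were chosen with earlier results of these data known.

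The 24 replanted libraries entered 1 edgeR 4.0.16 quasi-likelihood model (R 4.3.3) of 4 group means, with TMM scaling, filterByExpr, a robust fit, 20 residual degrees of freedom, 7 contrasts and Benjamini-Hochberg adjustment. On simulated data (day 7 against day 3 over both drying times, 11314 genes) it called 90% of 110 genes changed by 2 on the log2 scale and 100% of 90 changed by 4. The changed genes were drawn at random above a set mean level, each with its own spread. These shares therefore do not give the power for the members. In this contrast the SEs of the tested granule genes other than Lcn2 ran from 0.725 (Camp) to 0.876 (Ctsg). NT has no replicate and entered no test. Poisson intervals are exact and cover counting error only. The smallest chi-square per degree of freedom between 2 libraries of a group was 23.3, so none was a repeat.

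By the numbers in their titles, IR and DR libraries deviated together at day 7 (correlations 0.214 to 0.721, 6 of 6 above 0.1) but not at day 3 (-0.415 to 0.214). The day 7 libraries are numbered 1 to 6 in the titles and 2 to 7 in the deposited column names, in IR and DR alike, so either numbering gives the same day 7 pairs. It would give other pairs between days. Replicates are named by title. Alternatives were RLE and upper quartile scaling, ribosomal RNA left out, no filter, DESeq2 1.42.0, limma 3.58.1 (voom with quality weights), 2-group fits, replicate blocks, leaving out each library, and leaving out the 6 gland-rich libraries (for stage sums, added after seeing the data). Genes named from lists are the 2 called of largest change and the 2 of highest mean level in each, plus the 5 most alike per stage.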

Additional observations from a re-analysis of the deposited data

Results flagged for a closer look

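Of 32 sets of 6 libraries (8 tested genes in 4 groups), 2 held a library far from the others; chance alone puts about 1 in 20 sets in that position. Lcn2 stood at 3.09 log2 CPM in IR day 3 replicate 6, where the other 5 libraries of the group lay between 7.52 and 9.57. That library is gland-rich and had 0 primary granule counts. S100a9 stood at 9.31 log2 CPM in IR day 7 replicate 6, where the other 5 lay between 10.96 and 11.94. That library had the most Camp of any replanted library.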

How the results depend on the processing

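Prtn3 and Ltf had too few counts for the test (76 counts and 1 count over 24 libraries), and the alternatives called no member with time over both drying times, or between DR and IR at day 3 or day 7, except S100a8 (2.52) and S100a9 (2.89) with time under voom weights. Genes called between day 7 and day 3 over both drying times numbered 2156, against 5479 with voom weights and 51 without the 6 gland-rich libraries. In IR, the 16 called became 748 with DESeq2, 4394 with voom, 0 with the 2 groups alone and 1 without the 6. In DR, the 1 called became 0 with RLE scaling, without ribosomal RNA, without the filter or without the 6, 20 with upper quartile scaling, 1064 with DESeq2, 3305 with voom and 704 with the 2 groups alone. For drying, the 0 called became 1190 at day 3 with voom, 3 at day 7 with DESeq2, and 2 (DESeq2) or 245 (voom) over both days. For the interaction the 0 became 11 (DESeq2) or 522 (voom). The cause was not tested, except that fewer libraries enter where some are left out.

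The replicate block over all 24 libraries gave 1197 calls over both drying times and 0 in IR and in DR, and turned Ngp to -0.25 and Lcn2 to 0.052 with time. The replicate block within a day, which the pairing at day 7 warrants, gave 0 calls at both days. At day 3 it turned the sign of S100a8 to -1.63 (SE 3.34) and of S100a9 to -2.07 (SE 3.91). It called no member, as in the main fit.

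Several members changed sign under some settings. For DR against IR at day 7, Lcn2 (0.02) became -0.0085 with RLE, -0.0086 with DESeq2, -0.0193 without ribosomal RNA and -0.0234 without the filter. At day 3, voom gave -0.74 for S100a8 and -1.07 for S100a9, and leaving out the 6 gave 0.26 for Lcn2. With time, voom gave 0.071 for Mpo, 0.47 for Elane, 0.71 for Camp, -0.13 for Ngp and 0.059 for Lcn2. Leaving out the 6 gave -0.26 for Ngp, -0.37 for S100a8 and -0.25 for S100a9.

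Leaving out 1 library at a time gave 0 to 576 calls for drying at day 3 and 0 to 201 over both days (both highest without IR day 3 replicate 6), 0 to 1420 with time in DR (highest without the same library), 0 to 402 in IR (highest without IR day 3 replicate 1) and 1371 to 2916 over both drying times. No member was called in these fits, with time or for drying at either day. Members that turned sign had ranges, for drying at day 3, of -0.54 to 0.54 (S100a8), -0.30 to 0.72 (S100a9) and -0.82 to 0.10 (Lcn2). At day 7 the ranges were -0.16 to 0.28 (Lcn2), -0.60 to 0.12 (Elane), -0.69 to 0.36 (Camp) and -1.28 to 0.45 (Ngp). With time they were -0.48 to 0.21 (Camp), -0.22 to 0.18 (Lcn2) and -0.31 to 0.53 (Ngp). Without changing sign, S100a8 ran from 0.27 to 0.74 and S100a9 from 0.39 to 0.87 with time, both highest without DR day 3 replicate 6.

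Without ribosomal RNA in the total, NT held 1311 CPM of Camp and Ngp and 8559 CPM of S100a8 and S100a9. Replanted values rise more, because ribosomal RNA took 9.81% to 34.1% of their counts, against 2.93% in NT. S100a8 is then higher in DR day 3 replicate 6 than in NT. Without the 6 gland-rich libraries, the DR day 3 medians were 49.5 CPM for the primary granule genes (4.25 with them), 52.2 CPM for Camp and Ngp (14.0 with them) and 6823 CPM for the S100 pair (1214 with them), and the IR day 3 median of the pair was 5121 CPM (2360.3 with them).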
